A study of Mus musculus with 7 samples.

Results

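The Iroquois homeobox genes Irx1, Irx2, Irx3, Irx4, Irx5 and Irx6 were examined in maps of trimethylated lysine 27 of histone H3 (H3K27me3) from epidermal progenitors of newborn mice. The 6 genes were chosen by family membership, out of 21631 protein-coding genes on chromosomes other than Y. Peaks were assigned to a gene when they overlapped its RefSeq body extended by 10 kb on both sides. By this rule the genes drew 4 of the 3631 peaks of control cells and 0 of the 2340 peaks of Ring1a/b 2KO cells, a double knockout of Ring1a and Ring1b. Chromatin was immunoprecipitated and sequenced from back-skin cells of postnatal day 0, sorted as interfollicular epidermis by the surface proteins EpCAM, Sca1 and α6-integrin. Control and Ring1a/b 2KO cells had 2 labelled libraries each and 1 list of called peaks per genotype. The strain, the driver of the deletions and the alleles of the controls were not given in the sources used here. The titles of the 2KO libraries name H3K27me1, whereas their antibody label and the peak list name H3K27me3, and the list was read as H3K27me3. Libraries of input chromatin and of Eed cKO cells were not analysed here.

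Iroquois genes encode homeodomain transcription factors of the TALE class, named for extra residues in a loop of the homeodomain. They pattern the neural tube, the heart, the limb and other embryonic fields. In mice they lie in a pair of clusters that arose by duplication, Irx1, Irx2 and Irx4 in the first and Irx3, Irx5 and Irx6 in the second. Irx1 with Irx3, Irx2 with Irx5 and Irx4 with Irx6 are regarded as the corresponding genes of the clusters. H3K27me3 is deposited by Polycomb repressive complex 2 and marks many silent developmental genes. Ring1a and Ring1b are the enzymes of Polycomb repressive complex 1 that attach ubiquitin to histone H2A.

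The promoter sequences are shown first, since CpG-rich DNA is the usual ground of Polycomb binding and since the control peak at Irx3 lay beside its promoter, not over it. Of the 6 members, 3 had a promoter in the RefSeq table of build GRCm38.p6. Irx1, Irx5 and Irx6 had none listed, so whether a control peak lay over the promoter of Irx1 or Irx6 could not be read. The promoters of Irx2 (chr13:72628570-72628819, plus strand) and Irx4 (chr13:73260247-73260496, plus strand) had no control peak nearby. That of Irx3 (chr8:91801655-91801904, minus strand) lay 1.5 kb from one. The promoter of Irx3os, the noncoding RNA gene next to Irx3 (chr8:91803086-91803335, plus strand), ended 69 bp short of the same peak. The promoter of the noncoding RNA gene Gm28516 (chr8:92024192-92024441, plus strand), between Irx3 and Irx5, lay inside a control peak. Each sequence gives the 250 bases before the start site, 5′ to 3′ on the strand of the gene, with CpG dinucleotides in capitals.
Irx2: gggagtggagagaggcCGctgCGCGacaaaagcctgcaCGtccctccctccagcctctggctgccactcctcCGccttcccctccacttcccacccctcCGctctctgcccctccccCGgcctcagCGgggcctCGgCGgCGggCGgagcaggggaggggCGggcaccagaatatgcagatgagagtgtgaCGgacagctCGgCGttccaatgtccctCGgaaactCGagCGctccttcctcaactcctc
Irx4: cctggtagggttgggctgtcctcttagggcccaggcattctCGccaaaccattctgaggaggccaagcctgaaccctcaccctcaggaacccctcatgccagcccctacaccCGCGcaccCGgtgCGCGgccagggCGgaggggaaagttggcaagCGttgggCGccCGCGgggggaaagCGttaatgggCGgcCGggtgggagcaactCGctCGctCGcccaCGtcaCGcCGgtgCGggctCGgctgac
Irx3: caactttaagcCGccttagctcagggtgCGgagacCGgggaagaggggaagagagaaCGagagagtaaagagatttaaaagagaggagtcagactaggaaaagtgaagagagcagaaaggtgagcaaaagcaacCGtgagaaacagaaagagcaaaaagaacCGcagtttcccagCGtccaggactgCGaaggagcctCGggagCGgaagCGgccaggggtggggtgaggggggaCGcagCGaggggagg
Irx3os: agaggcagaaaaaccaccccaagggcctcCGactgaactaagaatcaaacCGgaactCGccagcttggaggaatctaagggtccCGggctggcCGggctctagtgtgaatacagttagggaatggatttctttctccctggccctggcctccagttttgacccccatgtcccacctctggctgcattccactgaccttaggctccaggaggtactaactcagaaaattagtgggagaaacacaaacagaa
Gm28516: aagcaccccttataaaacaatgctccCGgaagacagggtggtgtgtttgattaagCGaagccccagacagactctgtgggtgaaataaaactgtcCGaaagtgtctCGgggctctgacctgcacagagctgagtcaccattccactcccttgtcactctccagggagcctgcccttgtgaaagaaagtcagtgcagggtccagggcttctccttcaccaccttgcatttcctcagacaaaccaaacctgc

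The Irx2 and Irx4 promoters were richer in CpG than most. The Irx4 promoter held 22 CpGs in its 250 bases, more than 85.1% of the 32619 promoters of the table, and the Irx2 promoter held 19, more than 80.1%. The Irx3 promoter held 13 (more than 68.2%), that of Irx3os 5 and that of Gm28516 4. The median over all promoters was 6 CpGs. Promoters overlapped by a control peak alone had a median of 14 (quartiles 7 and 24, 1077 promoters) and those overlapped by peaks of both lists a median of 11 (quartiles 6 and 19, 1151 promoters). Promoters under no peak had a median of 5 (quartiles 2 and 15, 30248 promoters). So the unmarked Irx2 and Irx4 promoters lay above these medians in CpG number, and within the quartiles of promoters overlapped by a control peak alone. The listed start sites of Irx2 (72628820) and Irx4 (73260497) lay inside the annotated gene bodies, and sequence before any other start was not read. Gm28516, the listed promoter of the clusters that did lie under a control peak, lay below them. Within the cluster spans, 18 promoters were listed and 1 of them, that of Gm28516, overlapped a control peak. The promoters of Irx1 and Irx6, genes with a control peak in the window, were not among those listed. Of all promoters listed, 6.83% did.

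The same 250 bases were searched on both strands for 4 short motifs. The GC box GGGCGG, which binds factors of the Sp family, occurred 2 times in the Irx2 and 2 times in the Irx4 promoter and was not found in those of Irx3, Irx3os and Gm28516. It occurs in 32.96% of all promoters. Among the promoters shown, CCAAT was found 1 time, in that of Irx2 (34.0% of all promoters). The TATA box TATAAA was found 1 time, in that of Gm28516 (12.4%). The promoter of Crnde (chr8:92356121-92356370, minus strand), in the extended body of Irx5, is not shown. It held 17 CpGs, GGGCGG 2 times and CCAAT 1 time, and lay under no peak of either list. The palindrome ACANNTGT, bound by Iroquois factors, was not in these windows (6.36% of all promoters). The matches did not overlap one another. A match describes the letters of the window and does not show that a factor binds there.

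Control cells carried called H3K27me3 next to Irx1, Irx3 and Irx6, and not near Irx2, Irx4 or Irx5. In 2KO cells no peak was called at any of the 6 genes. The share of genes with a control peak, 3 of 6, is set beside 14.9% of all protein-coding genes, and 0 of 6 in the 2KO list beside 11.2%. All 3 genes with a control peak had no 2KO peak in the window. Among all 3219 genes with a control peak, 40.2% had no 2KO peak in the window. Such genes, with a control and no 2KO peak, made up 5.98% of all protein-coding genes. Since each genotype is a single list, replicate error is unknown and the genotypes could not be tested against each other. The lists give no height, score or depth, and a place without a called peak is not a place without the mark.

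At Irx1 (gene 16371, chromosome 13, 71958232 to 71963723) the control list held a peak of 7.92 kb (71963890 to 71971805). The peak began 166 bp beyond the higher-coordinate end of the gene and covered 31.1% of the extended gene, but none of the gene body. Irx1 is known from the developing lung and kidney. The 2KO list had 0 kb there, and the nearest 2KO peak lay 1.12 Mb from the gene.

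At Irx3 (gene 16373, chromosome 8, 91798511 to 91801654) the arrangement was similar. A control peak of 5.97 kb (91803405 to 91809377) lay 1.75 kb upstream of the start site and covered 25.8% of the extended gene and none of the gene body. It fell within Irx3os and began just inside the annotated start of that noncoding gene, at 91803336. Irx3 is known for its part in the neural tube, where it helps to set the boundary of the motor neuron domain, and in the conduction system of the heart. The 2KO list again had 0 kb, and its nearest peak was 2.00 Mb away.

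Irx6 (gene 64379, chromosome 8, 92674289 to 92680956) was the member whose body lay under a control peak. That peak measured 3.22 kb (92674344 to 92677567) and covered 48.4% of the gene body from just inside its lower-coordinate end. A second peak of 4.10 kb (92669078 to 92673179) lay 1.11 kb outside that end. Together they covered 7.33 kb, or 27.5% of the extended gene. Irx6 is known from the retina, where it acts in a class of bipolar neurons. The 2KO list had 0 kb in the window and its nearest peak at 1.12 Mb.

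Irx2, Irx5 and Irx4 had 0 kb of called sequence in the control list and 0 kb in the 2KO list. They were not near misses of the 10 kb rule. The nearest control peak lay 99.1 kb from Irx5 (gene 54352, chromosome 8, 92357796 to 92361456), a gene of retina, heart and skeleton. It lay 256.3 kb from Irx2 (gene 16372, chromosome 13, 72624430 to 72634196) and 574.2 kb from Irx4 (gene 50916, chromosome 13, 73259589 to 73269622), a factor of the cardiac ventricle. The farthest peak counted to a member was that at Irx3, 1.75 kb away, so the members divided into those with a peak within 1.75 kb and those with none within 99.1 kb. The median distance over all protein-coding genes was 192.2 kb for the control list.

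**Figure D1:**
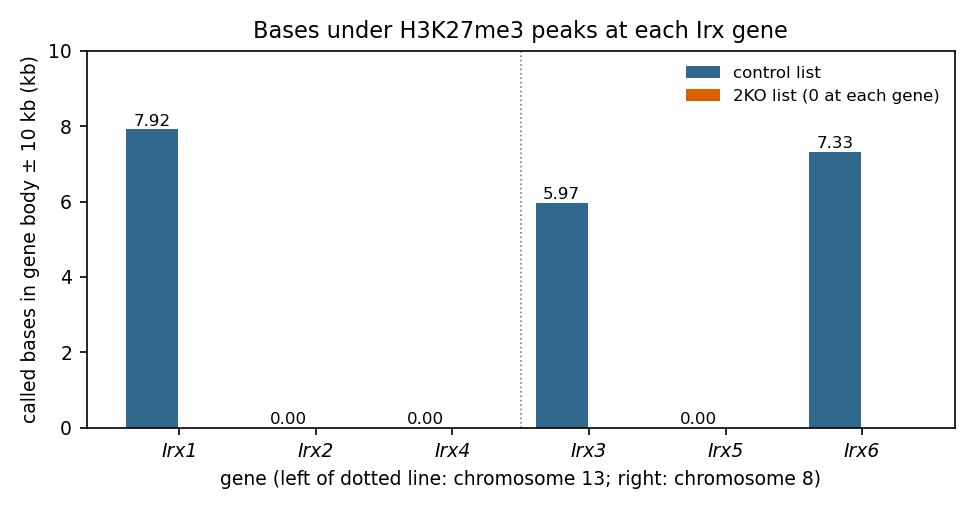
Bases under called H3K27me3 peaks (kb, vertical axis) in the body of each Irx gene extended by 10 kb on both sides, in the control list (blue) and the 2KO list (orange, 0 at each gene). Irx1, Irx3 and Irx6 stood between 5.97 and 7.92 kb in the control list and the other members at 0.

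The amounts at the 3 marked members lay in the middle of the range of control-marked genes. Genes with a control peak had a median of 5.21 kb under control peaks in the same window (quartiles 3.13 and 8.77 kb). Irx1 exceeded 71.1% of them, Irx6 67.4% and Irx3 56.9%. Of the 462 genes with an amount between those of Irx3 and Irx1, the members included, 34.0% had no 2KO peak in the window.

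By distance, the 6 genes lay far from any 2KO peak. The distance was 0.850 Mb for Irx4, 1.12 Mb for Irx1, 1.12 Mb for Irx6, 1.44 Mb for Irx5, 1.49 Mb for Irx2 and 2.00 Mb for Irx3. The median over all protein-coding genes was 285.2 kb, and between 74.0% (for Irx4) and 90.4% (for Irx3) of genes were nearer to a 2KO peak than a given member. Among genes with a control peak in the window the median was 2.94 kb, and 92.8% of those genes were nearer to a 2KO peak than Irx1, 92.9% than Irx6 and 96.4% than Irx3. Of the 3219 genes with a control peak, 40.2% had no 2KO peak in the window. The rest had one there and so were nearer than Irx1, Irx3 and Irx6 by that alone. The shares among control-marked genes thus partly restate the absence of 2KO calls in the windows of these members. Members of a cluster share their distances in part, since the same 2KO peak is often the nearest of several.

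**Figure D2:**
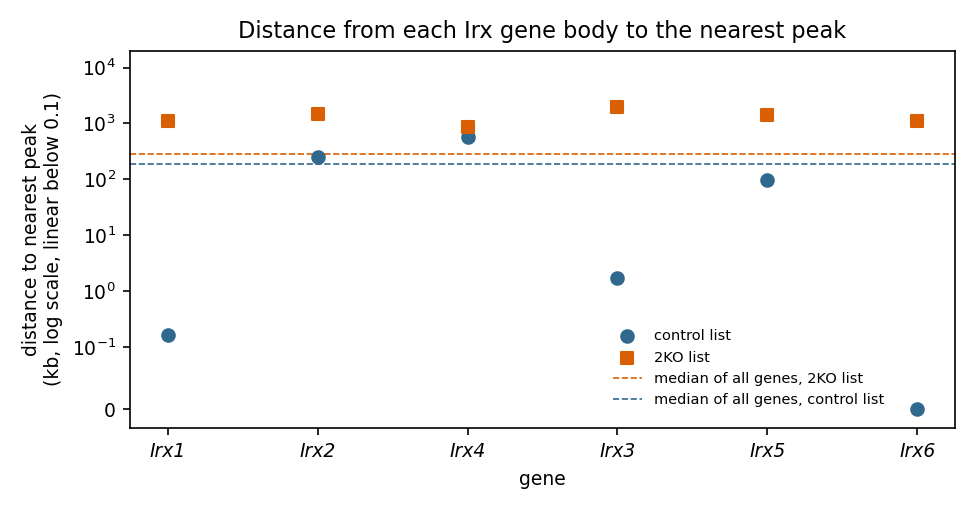
Distance from each Irx gene body to the nearest called peak (kb, logarithmic above 0.1 and linear below), for the control list (blue circles) and the 2KO list (orange squares). Dashed lines give the medians over all protein-coding genes, 192.2 kb for control and 285.2 kb for 2KO. The 2KO distances lie above their median at each gene, and the control distances range from 0 at Irx6 to 574.2 kb at Irx4.

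The clusters were then compared over their whole spans, from the first to the last gene with 10 kb added at both ends. The cluster of Irx3, Irx5 and Irx6 (chromosome 8, 91788511 to 92690956, 0.902 Mb) was the denser. It held 7 control peaks with 27.6 kb, or 3.06% of its length. The cluster of Irx1, Irx2 and Irx4 (chromosome 13, 71948232 to 73279622, 1.33 Mb) held 3 control peaks with 22.4 kb, or 1.69%. This is 7.76 peaks per Mb for the former and 2.25 for the latter, where the genome had 1.38 control peaks per Mb and 0.944% of its length under them. Both spans held 0 2KO peaks, with 0.889 per Mb over the genome. Within the extended genes alone, 13.3 kb of 73.5 kb (18.1%) lay under control peaks in the cluster of Irx3, Irx5 and Irx6 and 7.92 kb of 85.3 kb (9.28%) in that of Irx1, Irx2 and Irx4. The share of these bases also called in the 2KO list was 0% in both clusters. The clusters therefore differed in called bases of the control list and could not be told apart in what the 2KO list retained. With only control peaks of at least 5 kb, the order in the extended genes was reversed. The cluster of Irx3, Irx5 and Irx6 then held 5.97 kb and that of Irx1, Irx2 and Irx4 7.92 kb. Under the other settings tried, the former held more.

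The peaks of the cluster of Irx1, Irx2 and Irx4 were fewer and wider, with widths of 5.62 to 8.90 kb (median 7.92 kb) against 1.67 to 5.97 kb (median 3.96 kb) in the cluster of Irx3, Irx5 and Irx6. The median over all control peaks was 4.76 kb. The widest of the clusters, 8.90 kb (chromosome 13, 72296161 to 72305056), was wider than 81.0% of control peaks, and the narrowest, 1.67 kb (chromosome 8, 92460594 to 92462267), than 5.70%. The wide developmental domains of the control list, which reach 131.3 kb, had no counterpart in either Irx cluster.

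Most peaks of the clusters lay between the genes. Of the 10 control peaks in the spans, 6 were at least 10 kb from any member, and the spans hold no other protein-coding gene. Over the genome, 20.5% of control peaks lay at least 10 kb from any protein-coding gene. That share is not like for like, since the spans are mostly sequence between genes. By length, called bases were denser in the extended genes. They took up 18.1% of these against 3.06% of the whole span for Irx3, Irx5 and Irx6. For Irx1, Irx2 and Irx4 the values were 9.28% and 1.69%. In the 660.7 kb between Irx1 and Irx2, 3 control peaks covered 22.4 kb: the one beside Irx1, the one of 8.90 kb named above, and one of 5.62 kb (72362542 to 72368163). The last of these lay 256.3 kb from Irx2 and the one before it 319.4 kb. The next interval, the 625.4 kb between Irx2 and Irx4, had 0 control peaks. In the 556.1 kb between Irx3 and Irx5, 4 control peaks covered 18.6 kb, and the 312.8 kb between Irx5 and Irx6 had 2 peaks with 5.78 kb.

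Between Irx3 and Irx5, a pair of neighbouring peaks of 3.96 kb (92021421 to 92025377) and 4.88 kb (92026773 to 92031649) lay over Gm28516, the first of them over its promoter. Another of 3.84 kb (92211671 to 92215510) lay 142.3 kb from Irx5 and met no annotated gene. The 1.67 kb peak between Irx5 and Irx6 also met no annotated gene. In both clusters the interval after the first gene thus held more called bases than the interval after the second, 22.4 against 0 kb and 18.6 against 5.78 kb. The intervals on chromosome 8 differ in length, 556.1 and 312.8 kb. The peak of 3.22 kb inside Irx6 is counted in neither.

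The corresponding genes of the clusters can be set side by side. Irx1 and Irx3 each had a single control peak beside the gene and none over it, of 7.92 and 5.97 kb. Irx2 and Irx5 both had 0 kb. Irx4 had 0 kb and Irx6 7.33 kb, so this was the pair that differed. In the 2KO list each of these values was 0 kb.

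**Figure D3:**
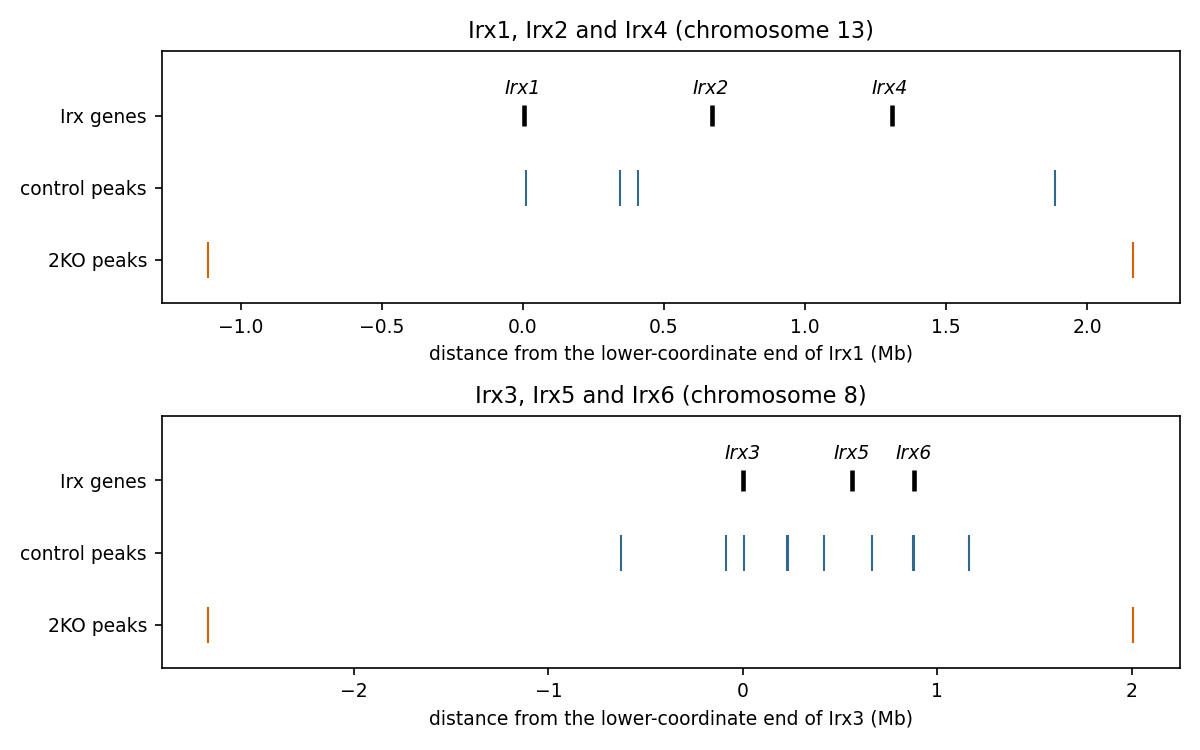
Positions of Irx genes (black), control peaks (blue) and 2KO peaks (orange) along each cluster and out to the nearest 2KO peak on either side, as distance from the lower-coordinate end of the first gene (Mb). Ticks mark centres and are not drawn to width, and close peaks merge. The cluster of Irx1, Irx2 and Irx4 has 3 control peaks in its span and that of Irx3, Irx5 and Irx6 has 7, with 0 2KO peaks in either.

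The absence of 2KO calls reached beyond the clusters. The cluster of Irx1, Irx2 and Irx4 lay in a stretch of 3.28 Mb between neighbouring 2KO peaks, one at Adamts16 (70840391 to 70842903) and the other at Slc9a3 (74119335 to 74125027). This stretch held 4 control peaks, the fourth at Nkd2 (73843785 to 73847258). The cluster of Irx3, Irx5 and Irx6 lay in a stretch of 4.75 Mb from a 2KO peak at Sall1 (89044057 to 89049611) to one at 93804016 to 93809906 outside any annotated gene, with 10 control peaks. Of the 2320 stretches between neighbouring 2KO peaks, with a median length of 0.297 Mb, 91.2% were shorter than the first and 95.1% shorter than the second. As many control peaks or more were held by 137 stretches for the first cluster and by 14 for the second, the cluster's own stretch included. A stretch picked because it holds a given gene is more likely to be a long one. These shares and counts therefore overstate how unusual the stretches of the clusters are. In windows of 1 Mb with at least 3 control peaks, 13.5% (of 502) had no 2KO peak. With at least 7 control peaks the share was 8.43% (of 83). These windows were fixed bins, matched to the clusters neither in length nor in the width of their peaks.

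The nearest protein-coding neighbours were looked at next. Ndufs6, which encodes a subunit of mitochondrial complex I, lies 50.3 kb beyond Irx4, and Fto, an RNA demethylase gene whose introns hold distant enhancers of Irx3, lies 130.1 kb before Irx3. Mmp2, a gelatinase gene, lies 146.3 kb beyond Irx6. Ndufs6, Fto and Mmp2 had 0 peaks within 10 kb in either list. Adamts16, a metalloprotease gene 1116.4 kb before Irx1, had a peak in both lists, with 3.16 kb under control and 2.51 kb under 2KO peaks. It is the neighbour at which a control call was met by a 2KO call.

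Peak width bears on this comparison, since narrow control peaks were less often met by a 2KO peak. All 10 control peaks of the cluster spans lacked an overlapping 2KO peak, where 52.6% of all control peaks did. In the range of width of the Irx peaks the share was 55.8% (of 2735), and for peaks at least 10 kb from any protein-coding gene 66.8% (of 744). By class of width, 71.3% of control peaks under 3 kb had no 2KO peak (95% Wilson interval 68.3 to 74.2). The share was 57.7% from 3 to 5 kb (54.7 to 60.7) and 44.3% from 5 to 10 kb (41.4 to 47.2). It was 37.6% from 10 to 20 kb (32.9 to 42.7) and 17.9% at 20 kb or more (13.1 to 24.0). The Irx peaks numbered 1, 5, 4, 0 and 0 in these classes. The intervals cover counting error only, and neighbouring peaks are not independent. The part of width, depth or the calling threshold in the loss of calls at the Irx genes was not tested.

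**Figure D4:**
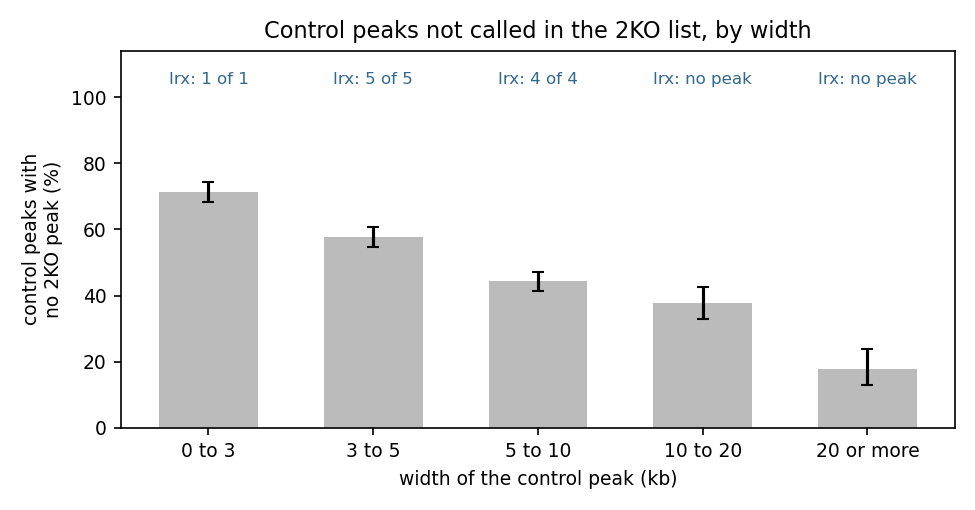
Share of control peaks with no overlapping 2KO peak (%, vertical axis) by width of the control peak (kb); whiskers are 95% Wilson intervals. The share falls from 71.3% under 3 kb to 17.9% at 20 kb or more. Blue text counts the Irx cluster peaks of each class with no 2KO peak, 1 of 1, 5 of 5 and 4 of 4, with no Irx peak of 10 kb or more.

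Other homeobox families were counted by the same rule. Their counts are read against the 14.9% of all protein-coding genes with a control peak and the 40.2% of these without a 2KO peak. Of the 9 Dlx and Msx genes, which act in face, limb and forebrain, 7 had a control peak and 6 of these also a 2KO peak. Of the 39 Hox genes, 31 had a control peak and 15 of these a 2KO peak. Genes of a cluster share peaks, so these counts rest on few regions: the control peaks numbered 4 at Irx, 6 at Dlx and Msx and 8 at Hox genes. The median of called control bases in the window, over marked genes, was 7.33 kb for Irx, 17.2 kb for Dlx and Msx and 22.2 kb for Hox. These are bases per window and not domain widths: peaks of Hox clusters run past the window edge, several Hox windows are covered over their whole length, and Msx2 (1.74 kb) lay below each marked Irx gene. Whether retention differs between these families was not tested.

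Among the other TALE homeobox genes, 5 of 12 had a control peak (14.9% of all protein-coding genes) and 4 of these 5 had no 2KO peak in the window (40.2% of all genes with a control peak). Meis1, a Hox cofactor, had 23.1 kb in the control list and 0 kb in the 2KO list, and its paralog Meis2 had 8.11 and 0 kb. Pbx4, of another family of Hox cofactors, had 4.96 and 0 kb. Pknox2, a relative of Meis genes, had 4.38 and 0 kb. Mkx, a tendon factor closely related to the Iroquois genes, had 12.5 kb in the control and 6.28 kb in the 2KO list. With 5 marked genes, nothing is read from this share about the TALE class.

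Genes that act with Irx factors in neural tube, heart and limb, or downstream of them, gave other counts. Of 20 such genes, 13 had a control peak (14.9% of all protein-coding genes). All 13 of these had a 2KO peak, where 40.2% of all genes with a control peak had none. The other 7, namely Kcnd2, Gja1, Gja5, Bmp10, Myh6, Myh7 and Gli3, had no peak in either list. Of the 13 marked genes, 11 had 10 kb or more under control peaks in the window. In that class 18.8% of all 653 protein-coding genes had no 2KO peak. No marked Irx gene was in that class, so the counts of the lists do not compare like with like. In the neural tube, Olig2, the motor neuron progenitor factor that is opposed by Irx3, had 23.1 kb in each list, which is its whole window, so that a difference could not show. Pax7, a dorsal factor, had 34.8 kb in the control and 32.2 kb in the 2KO list. Pax6 had 35.6 kb in the control and 13.6 kb in the 2KO list. The ventral factors Nkx2-2, Nkx6-1 and Nkx6-2 had 26.6 and 18.3 kb, 22.4 and 18.8 kb, and 11.7 and 7.51 kb, in control and 2KO respectively. Dbx1 and Dbx2, factors of interneuron progenitors, had 17.2 and 11.9 kb, and 6.44 and 7.33 kb.

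In heart and limb, Tbx5, which is required in both, had 45.5 kb in the control and 46.0 kb in the 2KO list. The cardiac factor Nkx2-5 had 22.4 and 25.6 kb, and Hand1, a factor of heart and placenta, 17.5 and 4.25 kb. The signal genes Shh and Fgf8 had 14.1 and 14.0 kb, and 9.70 and 8.40 kb. Dbx2 and Fgf8 had less than 10 kb in the control list, as the Irx genes did, and both were met by a 2KO peak. This list and the one of TALE genes were written with earlier results of these data known.

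**Figure D5:**
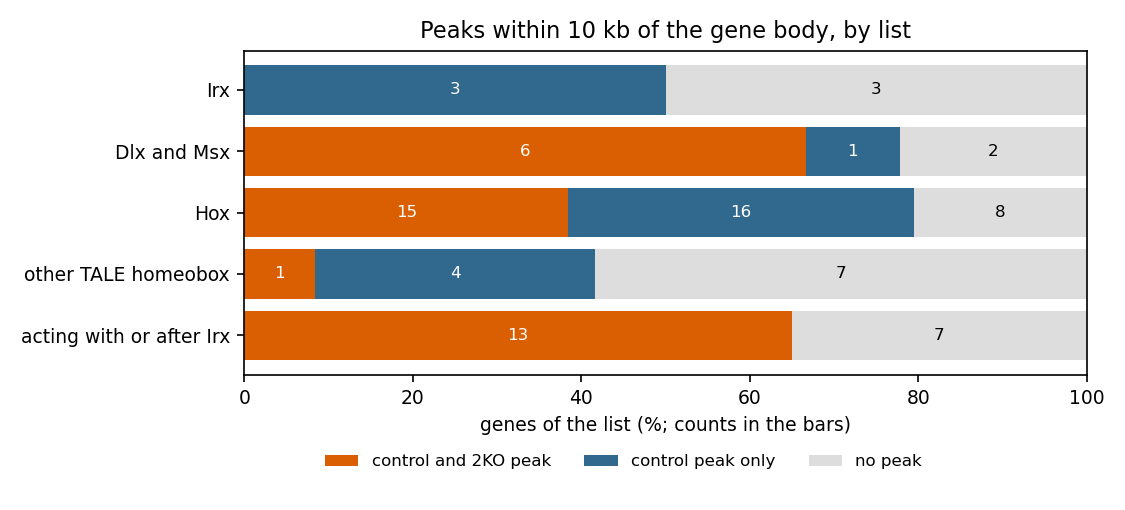
Share of the genes of each list (%, horizontal axis; counts in the bars) with a peak within 10 kb of the gene body in both lists (orange), in the control list alone (blue) or in neither (grey). The Irx bar has 0 genes with a 2KO peak, the bar of genes acting with or after Irx factors has 13 of 20.

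By the share of the extended gene under peaks in the 2 lists, the genes most like the mean of the Irx1, Irx2 and Irx4 cluster (10.4% in control, 0% in 2KO) were Idh3b, Tesc and Lrrc75b, at 10.3, 10.3 and 10.4% in control and 0% in 2KO. Those most like the mean of the Irx3, Irx5 and Irx6 cluster (17.8 and 0%) were Ppm1j, Tubb1 and Nr2f2, each at 17.7% in control and 0% in 2KO. Likeness was the straight-line distance over these 2 values. It singles out little, since 88 genes lay within 1 percentage point of the first mean and 42 of the second. Each mean also joins marked and unmarked genes and lay near no member. In control, Irx1 stood at 31.1%, Irx3 at 25.8% and Irx6 at 27.5%, and Irx2, Irx4 and Irx5 at 0%.

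Of the sorted cell type, 0 of 10 markers of basal epidermis (Krt5, Krt14, Trp63, Itga6, Itgb4, Epcam, Ly6a, Col17a1, Cdh1 and Cdh3) had a peak in either list. Since 14.9% of all protein-coding genes had a control peak and 11.2% a 2KO peak, this count checks the cell type little. Of 13 markers of other skin cells, 6 had a control peak, 6 a 2KO peak and 5 both. The lists do not measure how many other cells the sort held, and the part of such cells in the Irx calls was not tested.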

How the data were processed

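The members and gene lists were chosen with earlier results of these data known. The submitters' processing notes name Bowtie2 2.3.3.1, SAMtools 1.9 and build mm10. Per the file headers, the authors deposited 1 peak list per genotype with chromosome, start and end, and no height, score, p-value or depth. Peak caller, threshold, input correction and replicate pooling were not given in the sources used here. Start positions were taken as 0-based, as in BED files, and printed as 1-based. Gene coordinates came from RefSeq on GRCm38.p6, the same build as mm10, without strand. Promoter sequences are from RefSeq, of which the 250 bases before the start were used. Genome density was taken over the annotated extent of the chromosomes, 2631 Mb. Overlap was at least 1 bp. Named are the members, the neighbours of the clusters, the 3 genes nearest to each cluster mean in covered share, and, of the lists of other TALE genes and of genes acting with Irx factors, those with a control peak. Marker genes, and the genes acting with Irx factors that had no peak, are named to say which were counted. Other genes and noncoding genes named to place a peak or a promoter, such as Sall1, Gm28516 and Crnde, were chosen after their values were seen. So were the comparisons with Dlx, Msx and Hox genes, the width classes, the stretches between 2KO peaks and the 1 Mb windows. Values were computed with Python 3.11.15, numpy 2.4.6, pandas 2.3.3 and scipy 1.17.1, and figures with matplotlib 3.10.9. The overlap code was tested on 2000 simulated windows of known coverage, with 0 wrong. Alternatives varied the window, the peaks used and the overlap required.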

Additional observations from a re-analysis of the deposited data

How the results depend on the processing

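No paired analysis was possible because the lists carry no replicate numbers, and leaving out single replicates could not be done either. The number of members with a 2KO peak was 0 under each of 9 alternatives, which were windows of 0, 1, 5, 20 and 50 kb, equal numbers of the widest peaks, merging within 3 kb, peaks of at least 5 kb and an overlap of at least 1 kb. The retained share was 0% in both clusters under each alternative that gave a value, the whole cluster span included. Both outcomes were fixed in advance and do not measure robustness. The nearest 2KO peak lay 0.850 Mb or more from each member and the spans held 0 2KO peaks. No window up to 50 kb, merging within 3 kb or removal of peaks could change that. With a window of 0 kb the cluster of Irx1, Irx2 and Irx4 held no control bases and gave no value. The number of members with a control peak, 3, was 1 with a window of 0 kb (Irx6). It was 2 with a window of 1 kb, which dropped Irx3, and 2 with peaks of at least 5 kb, which dropped Irx6. The share of control-marked genes without a 2KO peak, 40.2%, was 44.2% with a window of 0 kb, while comparing as many of the widest peaks from each list gave 30.9%. The depth of the libraries is unknown, and weak enrichment at the Irx genes may have gone uncalled.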

Other observations

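Genes of the lists with under 10 kb of called control bases in the window were counted separately, a split chosen after the values were seen. In this class 0 of 3 Irx genes, 0 of 5 Hox genes, 0 of 3 other TALE genes and 0 of 1 Dlx and Msx gene had a 2KO peak, whereas 2 of 2 genes acting with or downstream of Irx factors did, Dbx2 (itself a homeobox gene) and Fgf8. Over all 2566 protein-coding genes of the class, 45.6% had no 2KO peak. The class is set by bases inside the window and not by domain width, since at Hoxa5, Hoxa6, Hoxb3, Hoxb5 and Pbx4 the control peak runs on past the window edge. In the class of 10 kb or more, 6 of 6 Dlx and Msx genes, 15 of 26 Hox genes, 1 of 2 other TALE genes and 11 of 11 genes acting with or downstream of Irx factors had a 2KO peak, and 18.8% of 653 protein-coding genes had none. Several of these genes share peaks, and the difference between lists was not tested.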
